A study of Mus musculus with 31 samples.

Results

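Small nucleolar RNA (snoRNA) host transcripts are long noncoding RNAs whose introns hold snoRNAs. The 9 listed hosts (Gas5, Snhg1, Snhg3, Snhg5, Snhg6, Snhg8, Snhg12, Snhg15 and Zfas1) were chosen by name, with earlier results of these data known. Of these, 8 had exonic and intronic values, out of 46130 genes with exonic values. Snhg1 was not analysed here. Exonic values and, separately, intronic values were summed over the annotated isoforms of each gene (GENCODE M21, build mm10).

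The cells were mouse embryonic stem cells of the DTCM23/49 XY line, which carry a conditional allele of Dicer1, the gene for the enzyme that cuts microRNA precursors. Newly made RNA was tagged with 200 µM 4-thiouridine (4sU), a uridine analogue that cells build into nascent RNA, for 10 or 15 minutes, and was then separated from untagged RNA. The 4 compared groups were the labelled fraction of Dicer-depleted (KO) cells, the labelled fraction of wild-type (WT) cells, the preexisting fraction of KO cells and the preexisting fraction of WT cells, each with 2 cultures sequenced at both labelling times, or 16 libraries. Loss of Dicer1 was induced with 800 nM 4-hydroxytamoxifen, and the labels give 8 days of treatment for KO and WT alike. They do not say whether WT cells received the drug, and the sample titles call the preexisting fraction total. The labels name no line other than DTCM23/49 XY, and the p-values below measure the spread between these cultures only. A culture here means a genotype and replicate number; the labels do not say whether its 2 labelling times shared a dish.

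A host gene is transcribed, its introns are cut out and opened, and exonucleases trim them back to the snoRNA that sits inside. C/D box snoRNAs guide methylation, and H/ACA box snoRNAs guide pseudouridylation, of ribosomal and spliceosomal RNA. The spliced exons left over often carry only short reading frames, and for Gas5 and several other hosts the spliced RNA is known to be degraded through nonsense-mediated decay, which is coupled to translation. Many hosts begin with a pyrimidine tract at the 5′ end, the 5′ TOP motif shared with ribosomal protein mRNAs, which ties their translation to growth signals.

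Starts of 4 measured hosts and of Zfas1 are shown because many hosts begin with such a pyrimidine tract. Each window is the transcribed strand, 5′ to 3′, from 10 bases before the start to 20 bases into the transcript, from RefSeq (GRCm38.p6). Capitals mark a run of at least 5 bases made only of C and T that touches the 10 bases around the start, on the transcribed strand.
Gas5 (chr1:161035156-161035185, plus strand): ccatctcagCCTTTCggagctgtgcggcat
Snhg12 (chr4:132308668-132308697, plus strand): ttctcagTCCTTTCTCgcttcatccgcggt
Snhg8 (chr3:123508317-123508346, minus strand): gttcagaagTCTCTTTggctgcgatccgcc
Snhg3 (chr4:132353667-132353696, minus strand): gaccacgcctgaCTTCCgggcgttacttaa
Zfas1 (chr2:167062924-167062953, plus strand): tgcgccccgggcggccgcaggtctcggctg
Such a run was found in 4 of the 7 measured hosts with an entry, and in 31.4% of all 32851 promoters of the same length. The hosts are counted per gene, so Gas5 counts by a single start, whereas the 31.4% is per promoter entry. All 4 hosts with a run are shown, but of those without only Zfas1. No such run touched the 10 bases around the start in Zfas1, Snhg5 or Snhg15, and Gas5 had a second listed start without one. The Snhg5 window does hold a run of at least 5 C and T bases further into the transcript. These are matches of letters at annotated starts and not mapped transcript ends.

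The genes are short and dense with snoRNAs. Gas5 lies on chromosome 1 (161034422 to 161038539, plus strand) and holds 10 annotated snoRNA genes in its introns. Snhg12 on chromosome 4 (132308623 to 132311024, plus strand) holds 5, and Zfas1 on chromosome 2 (167062934 to 167065862, plus strand) holds 3. These are annotation entries, and Snord80 of Gas5 and Snora16a of Snhg12 are each listed as 2 overlapping entries. Snhg3 on chromosome 4 (132348014 to 132353686, minus strand) holds Snora73a and Snora73b, the H/ACA RNAs also called U17, and Snhg5 on chromosome 9 (88521050 to 88522929, minus strand) holds Snord50a and Snord50b. Snhg6 on chromosome 1 (9941959 to 9944118, minus strand), Snhg8 on chromosome 3 (123507552 to 123508404, minus strand) and Snhg15 on chromosome 11 (6525591 to 6528760, minus strand) hold 1 each. Snhg3 overlaps the coding gene Rcc1 on the same strand over 5592 bases, so reads from either may have been counted for the other. Zfas1 overlaps Znfx1 by 82 bases, Snhg6 overlaps Mcmdc2 by 127 bases and Gas5 overlaps Zbtb37 by 428 bases, all on the opposite strand; the use of strand in counting is not stated.

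Isoforms of a host share most of their sequence, and the authors' software divided the reads they share. How steady that division was differed between pairs: among Gas5 isoforms, the steadiest pair kept a ratio of 0.805 to 0.812 over the 16 libraries and the least steady had 0.196 to 1.96. The number of isoforms summed is 25 for Gas5 and 3 for Snhg8. Levels of different hosts are therefore given both as the sum and as the mean per isoform, which is lower for a gene with many annotated isoforms.

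Levels are in TPM, a relative unit of transcript abundance in which reads are scaled for transcript length and for the total of a library, exons and introns together; the sequencing depth behind them is unknown. Differences were tested with limma, a linear model fitted across all genes at once, on log2(TPM + 1), and a gene passed at an adjusted p under 0.05. The targeted gene and cell markers were checked first. Exonic Dicer1 averaged 2.69 ± 0.671 TPM in KO and 16.6 ± 1.42 TPM in WT preexisting RNA (SD, n = 2 cultures), a log2 change of -2.29 (SE 0.25, adjusted p = 0.0347, limma). In labelled RNA it averaged 2.87 ± 0.617 TPM in KO and 8.22 ± 0.899 TPM in WT, a log2 change of -1.26 (adjusted p = 0.143, limma). All 8 stem cell markers were detected, with a summed level of 997 to 1694 TPM in KO and 1289 to 1888 TPM in WT libraries. Every one of the 7 fibroblast, 5 primitive endoderm and 4 trophoblast markers had a mean under 1 TPM, and each of those lists summed to at most 2.76 TPM in any KO library and 2.83 TPM in any WT library. The 10 minute preexisting library of WT replicate 1 was the highest of the 4 WT preexisting libraries for all 8 hosts, and that of KO replicate 1 held the highest value of its group for Snhg3 and Zfas1 and the lowest for Snhg8 and Snhg12. Calls of hosts that change without these libraries are given with and without them.

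As summed exonic levels, Gas5 was the most abundant host in all 4 groups and Snhg5 came next. Gas5 averaged 2069 ± 467 TPM in KO and 2345 ± 65.2 TPM in WT labelled RNA, and 753 ± 0.742 TPM in KO and 845 ± 114 TPM in WT preexisting RNA (SD, n = 2 cultures). Snhg5 averaged 428 ± 63.2 TPM in KO and 594 ± 81.3 TPM in WT labelled RNA, and its 4 libraries lay below the 4 of Gas5 in every group. Snhg6, Snhg12, Zfas1 and Snhg3 followed in labelled RNA, between 103 and 176 TPM in KO and between 115 and 181 TPM in WT, and Snhg15 and Snhg8 were lowest in all 4 groups. The mean per isoform placed Gas5 and Snhg5 close together, with 82.8 and 71.3 TPM in KO and 93.8 and 99.0 TPM in WT labelled RNA, and their ranges then overlapped. Summed without isoforms annotated as keeping an intron, Snhg5 averaged above Gas5 in labelled KO RNA, 299 against 262 TPM. It did so too in labelled WT RNA (415 against 325 TPM) and preexisting WT RNA (227 against 186 TPM). In preexisting KO RNA Gas5 was higher, 150 against 143 TPM, and the library ranges overlapped in every group. Both as the sum and as the mean per isoform, Snhg6 stood below Snhg3 in preexisting RNA and above it in labelled RNA. As sums, Snhg6 averaged 176 ± 31.2 TPM in KO and 176 ± 11.7 TPM in WT labelled RNA, and 25.7 ± 1.95 TPM in KO and 36.6 ± 14.2 TPM in WT preexisting RNA, while Snhg3 averaged 103 ± 12.4 TPM in KO and 115 ± 18.5 TPM in WT labelled RNA, and 92.8 ± 37.2 TPM in KO and 65.1 ± 8.41 TPM in WT preexisting RNA.

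**Figure D1:**
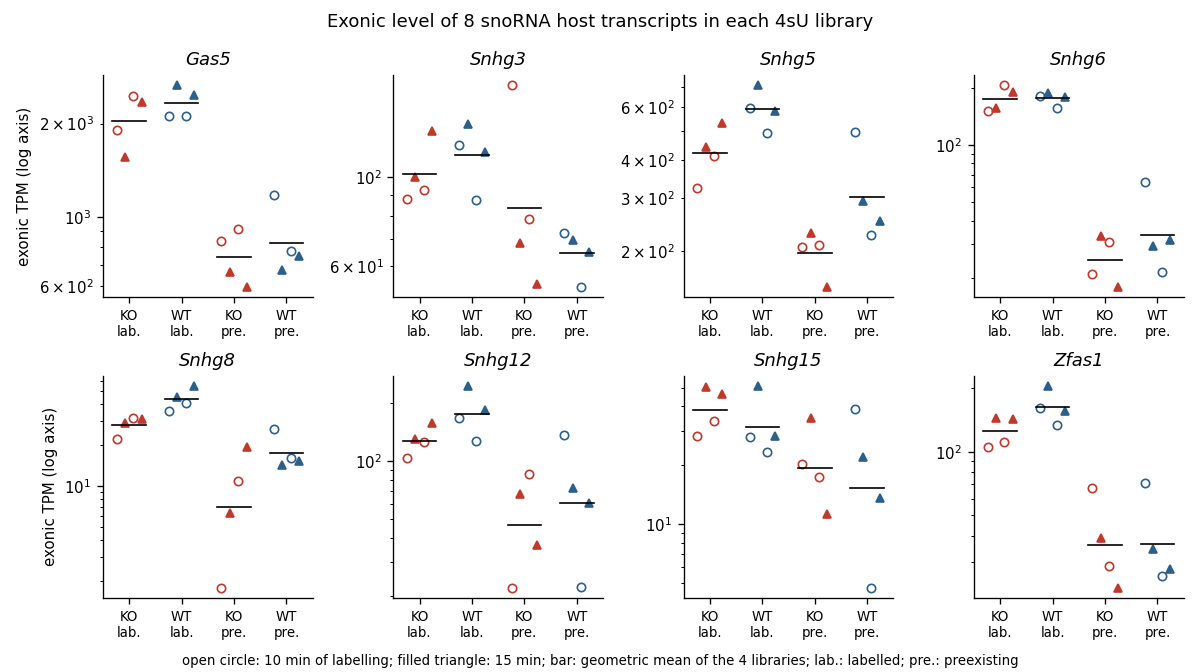
Exonic TPM (log axis) of each host in the 16 libraries, for labelled KO, labelled WT, preexisting KO and preexisting WT; points are libraries and bars geometric means of 4. The labelled libraries lie above the preexisting ones without overlap in both genotypes for Gas5, Snhg6, Snhg8 and Zfas1, and overlap them for Snhg15 in both.

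The central comparison asked how the newly made and the older pools of host RNA differ, which bears on how fast the spliced RNA is replaced. All 8 hosts were higher in labelled than in preexisting RNA in both genotypes, as were 61.2% of all tested genes in KO and 61.2% in WT. The test was passed by 6 of 8 hosts in KO and 6 of 8 in WT. These counts are read against all genes: 30.1% of 21821 tested genes passed in the same direction in KO and 26.1% in WT. The median log2 change of the hosts was 1.44 in KO and 1.39 in WT, against 0.28 and 0.24 over all genes tested, -0.05 and -0.02 over 11279 coding genes, and 1.12 and 1.03 over 1068 long noncoding RNAs. Since TPM is relative within a library, each value compares a host with the rest of the RNA of the same fraction and is no decay rate.

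Snhg6, the host of Snord87, had the largest ratio of the 8. Its exonic level was 151, 157, 207 and 189.6 TPM in labelled KO RNA, given as replicate 1 at 10 and 15 minutes and then replicate 2 at 10 and 15 minutes, against 21.1, 33.2, 30.9 and 17.9 TPM in preexisting KO RNA. In WT it was 180.4, 189, 157 and 179 TPM in labelled RNA against 63.9, 29.4, 21.4 and 31.8 TPM in preexisting RNA. No labelled library overlapped a preexisting one. The log2 change was 2.76 in KO (SE 0.26, adjusted p = 0.000477, limma) and 2.35 in WT (SE 0.26, adjusted p = 0.000841, limma), and only 1.70% of tested genes in KO and 2.93% in WT had a higher one.

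Zfas1 followed in WT and stood close to Snhg8 in KO. In the same order of libraries, Zfas1 had 106, 144, 111 and 143 TPM in labelled KO RNA against 67.2, 38.9, 28.7 and 22.7 TPM in preexisting KO RNA, and 161, 205, 134 and 155 TPM in labelled WT RNA against 71.4, 34.6, 25.9 and 28.0 TPM in preexisting WT RNA. The fractions did not overlap in either genotype. Its log2 change was 1.76 in KO (SE 0.37, adjusted p = 0.00739, limma) and 2.11 in WT (SE 0.37, adjusted p = 0.0043, limma).

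Gas5, named for its accumulation in growth-arrested cells, had 1913, 1565, 2447 and 2353 TPM in labelled KO RNA against 838, 666, 913 and 594 TPM in preexisting KO RNA. In WT it had 2119, 2664, 2118 and 2479 TPM in labelled RNA against 1175, 676, 778 and 751 TPM in preexisting RNA. Labelled and preexisting libraries did not overlap. The log2 change was 1.46 in KO (SE 0.17, adjusted p = 0.000748, limma) and 1.498 in WT (SE 0.17, adjusted p = 0.000926, limma), the smallest errors of the 8 hosts.

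Snhg8, the host of the H/ACA RNA Snora24, was the least abundant in preexisting KO RNA. It had 22.3, 29.0, 31.7 and 31.3 TPM in labelled KO RNA against 1.77, 6.31, 10.9 and 19.5 TPM in preexisting KO RNA, a spread of the 4 older values far wider than that of the newly made ones. In WT it had 36.1, 45.4, 41.0 and 55.1 TPM in labelled RNA against 26.2, 14.2, 16.04 and 15.4 TPM in preexisting RNA. The fractions did not overlap, and the log2 change was 1.805 in KO (SE 0.50, adjusted p = 0.022, limma), whereas in WT it was 1.28 and did not pass (SE 0.50, adjusted p = 0.084, limma). With the culture as a block, which pairs its fractions, Snhg8 passed in WT as well (adjusted p = 0.0402, limma). The genotype difference in this ratio, tested further on, did not pass.

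Snhg12 and Snhg5 passed in both genotypes. Snhg12, with 5 annotated snoRNA entries, changed by a log2 of 1.43 in KO (SE 0.43, adjusted p = 0.0293, limma) and 1.52 in WT (SE 0.43, adjusted p = 0.0272, limma). Its preexisting level varied widely, between 22.0 and 85.2 TPM in KO and between 22.3 and 137 TPM in WT, and in WT it overlapped the labelled range of 127 to 246 TPM. Snhg5 changed by 1.09 in KO (SE 0.25, adjusted p = 0.00963, limma) and 0.96 in WT (SE 0.25, adjusted p = 0.0193, limma). Its 4 labelled KO libraries held 325 to 533 TPM, above the preexisting KO range of 152 to 229 TPM, while in WT the labelled range of 491 to 709 TPM and the preexisting range of 226 to 495 TPM overlapped at their ends.

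Snhg3 and Snhg15 were the weakest. Snhg3 had 88.0, 99.9, 92.9 and 130.0 TPM in labelled KO RNA against 169.5, 68.6, 78.8 and 54.1 TPM in preexisting KO RNA, where the 10 minute library of replicate 1 exceeded every labelled one. In WT it had 119.9, 136, 87.6 and 116 TPM in labelled RNA against 72.5, 69.6, 53.2 and 65.1 TPM in preexisting RNA, without overlap. Its log2 change was 0.27 in KO (SE 0.27, adjusted p = 0.446, limma) and 0.80 in WT (SE 0.27, adjusted p = 0.0495, limma). Snhg15, described as a short-lived RNA in human cells, had 28.2 to 50.1 TPM in labelled KO RNA against 11.3 to 34.7 TPM in preexisting KO RNA, and 23.4 to 51.2 TPM in labelled WT RNA against 4.71 to 39.0 TPM in preexisting WT RNA. Its log2 change of 0.96 in KO (adjusted p = 0.191, limma) and 0.95 in WT (adjusted p = 0.212, limma) had an SE of 0.54 in each.

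The counts of hosts that passed depend on the libraries and on the scale. Without the 10 minute preexisting libraries of replicate 1, an alternative chosen after seeing the data, 7 of 8 hosts passed in KO and 7 of 8 in WT, with medians of 1.25 and 1.59. The added calls were Snhg3 in KO, at 0.59 (adjusted p = 0.044, limma), and Snhg8 in WT, at 1.49 (adjusted p = 0.0131, limma). Setting the median gene of every library equal left 3 of 8 in KO and 3 of 8 in WT, with medians of 0.94 and 0.91. Without retained-intron isoforms the medians were 1.21 in KO and 0.99 in WT. The 30.1% and 26.1% of all genes given above come from the main fit. They are no background for the counts under these alternatives. Without either WT culture no gene at all passed in the WT comparison.

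**Figure D2:**
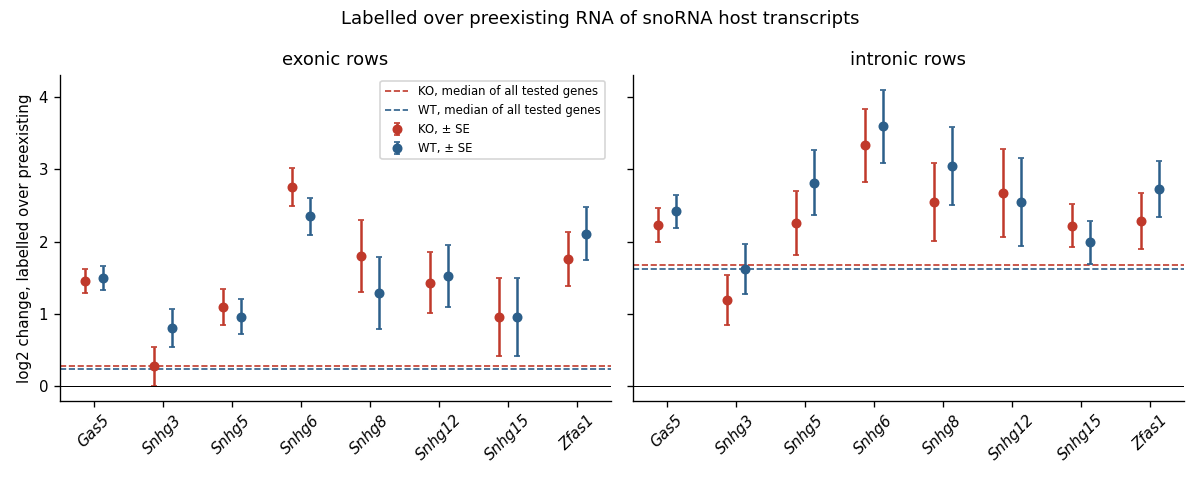
Log2 change of labelled over preexisting RNA for each host (points, ± SE from limma, n = 2 cultures per group) in KO and WT, for exonic rows (left) and intronic rows (right), with dashed lines at the median of all tested genes. Exonic points lie above the median of all genes except Snhg3 in KO, which sits on it at 0.27; intronic points lie above it except Snhg3.

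The exonic sum mixes spliced RNA with isoforms annotated as keeping an intron, which matters most for Gas5, where 20 of 25 isoforms are of that kind. As labelled minus preexisting mean log2(TPM + 1), the 5 other Gas5 isoforms had changes of 0.65 to 0.91 in KO and 0.67 to 0.92 in WT. The 20 with a retained intron had 0.99 to 2.97 in KO and 0.96 to 3.15 in WT, so the 2 sets did not overlap, and the Gas5 intronic rows had 1.22 to 3.52 in KO and 1.55 to 3.59 in WT. The shared reads were divided among isoforms by the authors' software, so single isoform values are estimates that borrow from one another.

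Summed without retained-intron isoforms, Gas5 had 193, 316, 274 and 263 TPM in labelled KO RNA against 152, 142, 182 and 124 TPM in preexisting KO RNA, and 227, 451, 280.4 and 340.0 TPM in labelled WT RNA against 287, 137, 154 and 165 TPM in preexisting WT RNA. The fractions overlapped in WT, where the highest preexisting library was the 10 minute one of replicate 1. The log2 change of Gas5 on this sum was 0.79 in KO (SE 0.16, adjusted p = 0.00592, limma) and 0.82 in WT (SE 0.16, adjusted p = 0.00631, limma), against 1.46 in KO and 1.498 in WT with all isoforms. Zfas1, with 4 of 5 isoforms of the retained kind, kept 1.36 in KO (adjusted p = 0.0127, limma) and 1.36 in WT (adjusted p = 0.0156, limma) from its 1 other isoform. Snhg5 and Snhg8 also have such isoforms, and their values were 1.05 and 1.64 in KO and 0.93 and 1.03 in WT. Snhg3, Snhg6, Snhg12 and Snhg15 have none, and their exonic sums are the same under both definitions.

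**Figure D3:**
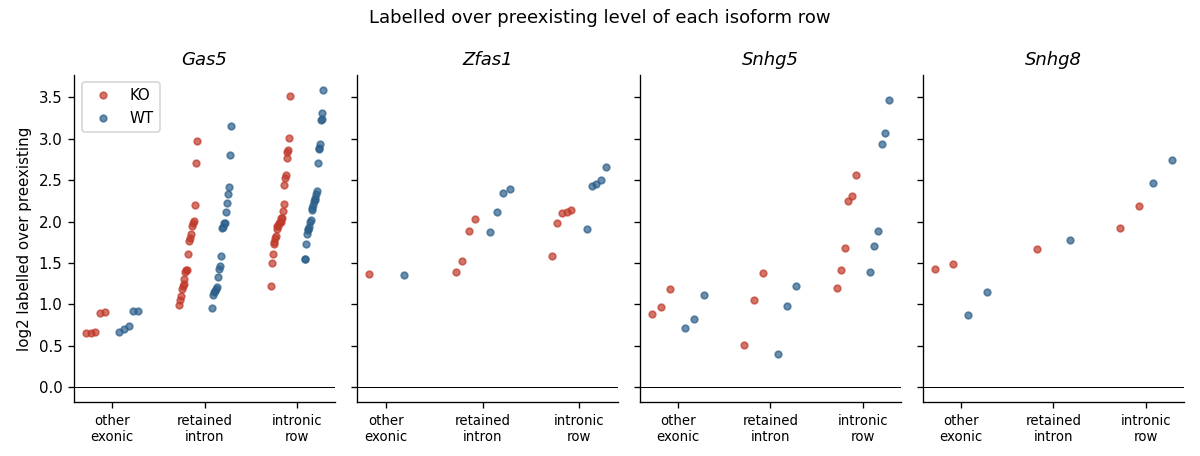
Labelled minus preexisting mean log2(TPM + 1), over 4 libraries a fraction, for each isoform of the 4 hosts with retained-intron isoforms, split into other exonic rows, retained-intron rows and intronic rows, in KO and WT. For Gas5 the other exonic isoforms (up to 0.91 in KO and 0.92 in WT) lie below every retained-intron isoform; in Snhg5 the 2 kinds overlap.

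Introns of the hosts were far more abundant in newly made RNA, as introns of most genes were. All 8 hosts passed in KO and in WT, with 94.2% of 12472 tested genes passing in the same direction in KO and 94.1% in WT, so these counts are near the background. Their median log2 change was 2.27 in KO and 2.64 in WT, against 1.68 and 1.63 over all genes. Once the median gene of every library was set equal, 1 of 8 hosts passed in each genotype, the medians of the hosts were 0.53 in KO and 0.93 in WT, and Snhg3 changed sign to -0.55 in KO and -0.09 in WT. The 94.2% and 94.1% above come from the fit without this step. Intronic rows took 18.5 to 23.3% of labelled KO libraries and 15.5 to 18.4% of labelled WT libraries, against 5.37 to 6.68% of preexisting KO and 4.41 to 5.49% of preexisting WT libraries.

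The Snhg6 intronic level was 143, 96.2, 169.9 and 182 TPM in labelled KO RNA against 14.9, 13.8, 11.7 and 13.1 TPM in preexisting KO RNA, and 182, 131, 143 and 153 TPM in labelled WT RNA against 23.3, 20.8, 6.33 and 5.37 TPM in preexisting WT RNA. The log2 change was 3.34 in KO (SE 0.51, adjusted p = 0.00033, limma) and 3.60 in WT (SE 0.51, adjusted p = 0.000221, limma), the largest of the 8 hosts, as it was in exons. The Gas5 introns had 1279, 979, 1849 and 1848 TPM in labelled KO RNA against 377, 257, 428 and 209 TPM in preexisting KO RNA, and 1566 to 1807 TPM in labelled WT RNA against 257 to 416 TPM in preexisting WT RNA. The lowest intronic change was that of Snhg3, 1.19 in KO (SE 0.34, adjusted p = 0.0103, limma) and 1.62 in WT (SE 0.34, adjusted p = 0.00214, limma), and in KO its fractions overlapped.

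The ratio of intronic to exonic level, each as the mean TPM per row, sets the intronic signal of a host against its exonic signal, which for Gas5, Zfas1, Snhg5 and Snhg8 includes retained-intron isoforms. For Gas5 it was 0.709 ± 0.0873 in KO and 0.728 ± 0.0091 in WT labelled RNA, against 0.414 ± 0.0049 in KO and 0.383 ± 0.006 in WT preexisting RNA (SD, n = 2 cultures). For Snhg8 it was 0.609 ± 0.181 in KO and 0.765 ± 0.177 in WT labelled RNA, against 0.154 ± 0.0343 in KO and 0.17 ± 0.117 in WT preexisting RNA. The labelled libraries lay wholly above the preexisting ones for 4 of 8 hosts in KO and 5 of 8 in WT. The share of all genes whose libraries separate was not counted for this ratio or for exonic levels. These counts therefore have no background beside them. Snhg5 had the lowest ratio in labelled RNA, 0.319 ± 0.082 in KO and 0.305 ± 0.0316 in WT, and Snhg15 the highest, 1.75 ± 0.0203 in KO and 1.70 ± 0.202 in WT.

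Values for the snoRNAs themselves were patchy in these libraries. Of 25 annotated snoRNA entries inside the measured hosts, overlapping ones counted separately, 6 were listed at 0 in every library. None of the 17 under 100 bases was above 0 in all 16. The 2 that were, Snora73a and Snora73b of Snhg3, are of the longer H/ACA class. Snora73a had a median of 84.9 TPM in KO and 86.8 TPM in WT labelled RNA, against 44.7 TPM in KO and 32.4 TPM in WT preexisting RNA, and its rows may hold reads of the Snhg3 intron as well as the snoRNA. Snora24, Snora44, Snora61 and Snora9 were above 0 in every labelled library but not in every preexisting one. The 81 base entry of Snord80 ranged from 0 to 213 TPM in KO and 0 to 364 TPM in WT labelled RNA. Its medians there were 104 TPM in KO and 147 TPM in WT.

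A further comparison was between 15 and 10 minutes of labelling. In labelled RNA the exonic level of all 8 hosts was higher at 15 minutes on average, as was that of 51.7% of all genes. The median log2 change was 0.32 in the hosts against 0.01 over all genes. No host passed, and only 1 of 21821 genes did (0.00458%). The largest changes were those of Snhg15, 0.59 (SE 0.14, adjusted p = 0.474, limma), and Snhg12, 0.43 (SE 0.10, adjusted p = 0.474, limma). Snhg3, Snhg5, Snhg12, Snhg15 and Zfas1 were higher at 15 minutes in 4 of 4 cultures, Snhg6 and Snhg8 in 3 of 4, and Gas5 in 2 of 4. Gas5 changed by 0.05 with all isoforms and, in an alternative chosen after seeing the data, by 0.48 without retained-intron isoforms (SE 0.19, adjusted p = 0.478, limma).

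The same contrast in introns and in preexisting RNA, also added after seeing the data, gave no such shared direction. Labelled introns of the hosts had a median of -0.06 against -0.14 over all genes, and 3 of 8 hosts were above 0 (20.2% of all genes). The preexisting exonic level had a median of -0.20 against 0.05 over all genes, and 3 of 8 hosts were above 0 (57.1% of all genes). No gene passed in either (0.0% of 12472 for introns and 0.0% of 21821 for preexisting RNA by limma, with 3561 and 960 genes at an unadjusted p under 0.05).

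**Figure D4:**
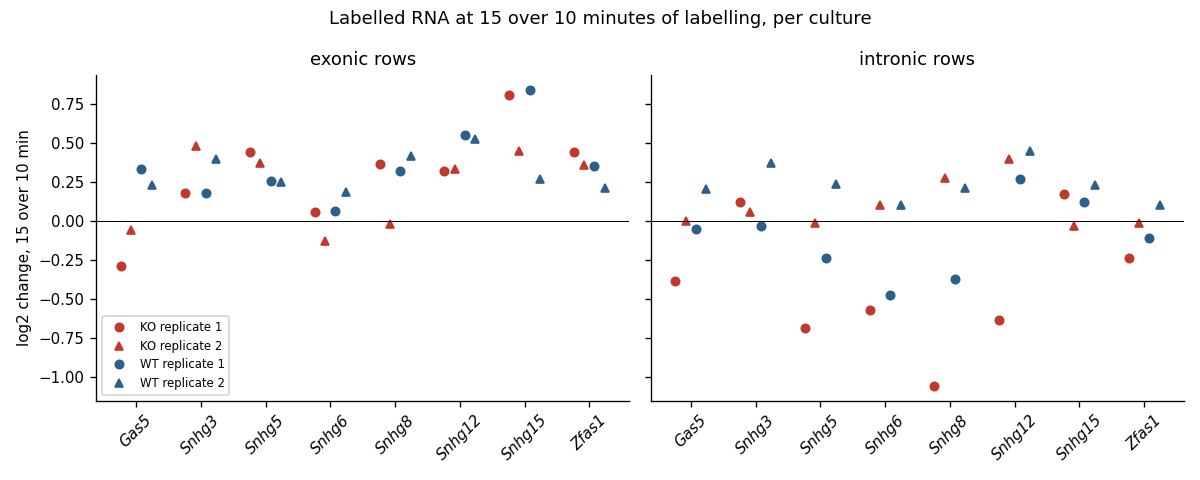
Log2 change of 15 over 10 minutes of labelling in labelled RNA for each host, 1 point per culture (KO replicates 1 and 2, WT replicates 1 and 2), for exonic rows (left) and intronic rows (right). Most exonic points lie above 0, with Gas5 split between KO below 0 and WT above it; intronic points fall on both sides.

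The comparison of KO with WT addressed how transcript turnover changes when Dicer1, and with it microRNA production, is lost. No host passed between KO and WT in preexisting RNA (0.646% of 21821 genes passed), in labelled RNA (0.128%), in the ratio of the fractions (0.00458%) or in labelled introns (4.23% of 12472). At an unadjusted p under 0.05 there was 1 host in preexisting RNA and 0 in each of the other 3. Over all genes there were 3886 of 21821 in preexisting RNA, 2963 in labelled RNA and 658 for the ratio. In labelled introns there were 3934 of 12472. With 2 cultures a group the intervals were wide, so a missing call does not show equal levels.

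In preexisting RNA 6 of 8 hosts were lower in KO, with a median log2 change of -0.26 against 0.04 over all genes. Of all genes tested, 53.2% were higher in KO. Snhg8 was the lowest host, at 9.63 ± 7.91 TPM in KO and 18.0 ± 3.16 TPM in WT (SD, n = 2 cultures), a log2 change of -1.14 with a 95% interval of -2.29 to 0.02 (adjusted p = 0.287, limma). Snhg5 had 199 ± 25.8 TPM in KO and 317 ± 109.7 TPM in WT, a log2 change of -0.61 with an interval of -1.18 to -0.04 (adjusted p = 0.25, limma). Gas5, with 753 ± 0.742 TPM in KO and 845 ± 114 TPM in WT, had the narrowest interval, -0.55 to 0.24 around -0.15. In no host did the KO and WT libraries separate. The median of the hosts was 0.15 without WT replicate 1 and -0.68 without WT replicate 2, and 0.03 without the 10 minute preexisting libraries of replicate 1, so its sign depends on 1 culture or 1 pair of libraries.

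In labelled RNA 7 of 8 hosts were lower in KO, with a median of -0.28 against 0.06 over all genes. Of all genes tested, 55.35% were higher in KO. Snhg8 averaged 28.6 ± 4.13 TPM in KO and 44.4 ± 5.16 TPM in WT, and was the only host whose 4 KO libraries all lay below the 4 WT libraries; its log2 change was -0.61 with an interval of -1.77 to 0.54 (adjusted p = 0.627, limma). Snhg5 averaged 428 ± 63.2 TPM in KO and 594 ± 81.3 TPM in WT, a log2 change of -0.48 with an interval of -1.05 to 0.09 (adjusted p = 0.439, limma). Snhg15 was the only one higher in KO, by 0.29 with an interval of -0.95 to 1.53. The Snhg6 level was 176 ± 31.2 TPM in KO and 176 ± 11.7 TPM in WT, with an interval of -0.61 to 0.59.

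The ratio of labelled to preexisting RNA differed between KO and WT by -0.53 to 0.52 on the log2 scale over the 8 hosts, with 4 above 0 and every adjusted p at 0.9999 (limma). Of all genes tested, 52.2% were above 0. The highest host was Snhg8, 0.52 with an interval of -1.11 to 2.16, and the lowest Snhg3, -0.53 with an interval of -1.40 to 0.34. The interval for Gas5 was -0.60 to 0.51 around -0.04. In labelled introns the median was -0.29 in the hosts and 0.28 over all genes, and 7 of 8 hosts were lower in KO. Of all genes tested, 83.0% were higher in KO. The median of the hosts was 0.054 without KO replicate 1 and -0.53 without KO replicate 2. The Snhg8 introns changed by -0.98 (SE 0.55, adjusted p = 0.253, limma).

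**Figure D5:**
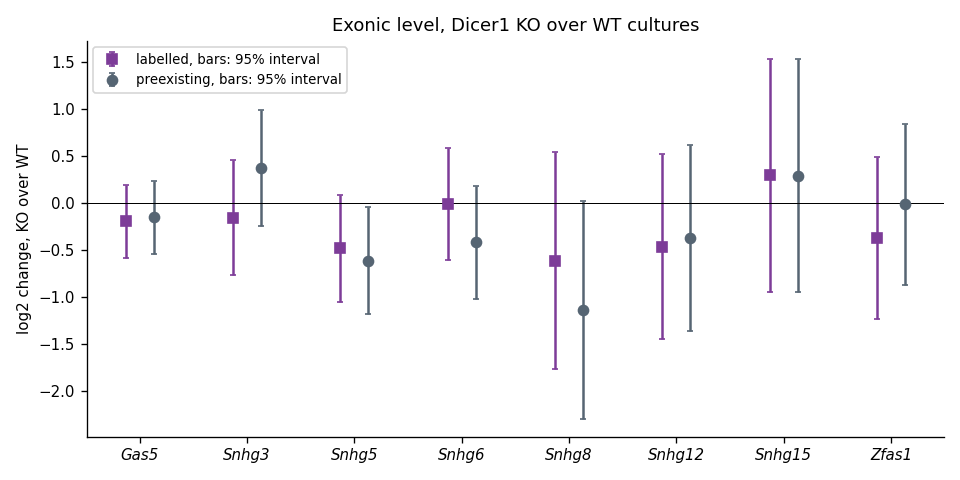
Log2 change of exonic level in KO over WT for each host in labelled and preexisting RNA, with 95% intervals from limma (n = 2 cultures per group). All intervals include 0 except that of Snhg5 in preexisting RNA (-1.18 to -0.04), whose adjusted p was 0.25.

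Other genes of the pathway gave the frame for these values. Of 12 other noncoding hosts on the list, 6 passed the filter on level, and all 6 were higher in labelled than in preexisting RNA, with medians of 1.20 in KO and 1.26 in WT. Dancr had the largest change, 2.87 in KO (SE 0.54, adjusted p = 0.00446, limma) and 2.63 in WT (SE 0.54, adjusted p = 0.00794, limma). Snhg14 (1.34 in KO and 1.25 in WT) and Snhg20 (1.503 in KO and 1.28 in WT) passed in both genotypes, and Snhg11 (1.19) and Snhg17 (1.33) passed in WT. None of the 6 passed between KO and WT, where their medians were -0.23 in labelled and -0.35 in preexisting RNA.

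Coding genes can carry snoRNAs in their introns too. Of 21 such genes, 0 passed as higher in labelled RNA in either genotype, 5 passed as lower in KO (background 11.0%) and 4 in WT (background 7.98%), and the medians were -0.03 in KO and -0.03 in WT. Eef2, translation elongation factor 2, changed by -1.65 in KO (SE 0.21, adjusted p = 0.000988, limma) and -1.37 in WT (SE 0.21, adjusted p = 0.00256, limma). Eif4a1, an RNA helicase of translation initiation, changed by -0.82 in KO and -0.84 in WT, and the chaperone Hspa8 by -0.78 in KO and -0.77 in WT. Hspa9 changed by -0.72 in KO and -0.68 in WT, and Nop56, a core C/D box protein, by -0.51 in KO (adjusted p = 0.0244, limma). Between KO and WT none of the 21 passed, with medians of -0.39 in labelled and -0.28 in preexisting RNA.

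The 8 proteins of mature snoRNP particles had medians of -0.01 in KO and -0.06 in WT for labelled over preexisting RNA, and Nop56 in KO was their only call. Between KO and WT, 7 of 8 were lower in both fractions, with medians of -0.49 in labelled and -0.51 in preexisting RNA, and none passed. Of 10 assembly factors, Shq1 was higher in labelled than in preexisting RNA in KO (1.13), and Ruvbl1 (-1.14), Ruvbl2 (-0.67) and Nolc1 (-0.67) were lower in labelled than in preexisting RNA in KO, with Ruvbl1 (-0.75) alone passing in WT. Their KO over WT medians were -0.36 in labelled and -0.31 in preexisting RNA, with none past the threshold.

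Of 12 nonsense-mediated decay factors, Smg5 was higher in labelled RNA in KO (0.90) and in WT (0.61), and Smg8 was lower in KO (-0.95). The list medians were 0.13 in KO and 0.04 in WT, and between KO and WT -0.04 in labelled and -0.07 in preexisting RNA. In the 5-gene exon junction complex, Eif4a3 was lower in labelled than in preexisting RNA in KO (-0.74) and in WT (-0.74), and Rbm8a was higher in labelled than in preexisting RNA in KO (0.76). The medians of labelled over preexisting RNA were 0.03 in KO and -0.05 in WT, and -0.20 in labelled and -0.27 in preexisting RNA between KO and WT. The 4 tested mRNAs known as targets of this decay passed in neither genotype. Their medians were -0.15 in KO and -0.05 in WT for labelled over preexisting RNA. Between KO and WT the medians were 0.13 in labelled and 0.15 in preexisting RNA. For labelled over preexisting RNA, Ddit3 changed by 1.72 in KO and 1.555 in WT (SE 0.775 in each). Gadd45a changed by 0.08 in KO and 0.26 in WT. Atf4 changed by -0.47 in KO and -0.37 in WT, and Gadd45b by -0.37 in KO and -0.37 in WT.

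Among 8 regulators of 5′ TOP RNAs, Pabpc1 (-1.33 in KO and -1.30 in WT), Larp4 (-1.19 in KO and -1.16 in WT) and Larp1 (-1.06 in KO and -0.997 in WT), which binds the TOP motif, were lower in labelled RNA. Their list medians were -0.35 in KO and -0.24 in WT, and between KO and WT -0.20 in labelled and -0.16 in preexisting RNA. Of 7 debranching and exonuclease genes, Exosc10 (-0.69 in KO and -0.62 in WT) and, in KO, the debranching enzyme Dbr1 (-0.92) were lower in labelled RNA, with list medians of -0.12 in KO and -0.20 in WT. Between KO and WT the medians of that list were -0.09 in labelled and 0.08 in preexisting RNA. No gene of these 5 lists passed between KO and WT.

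The genes whose profile over the 16 libraries was most like the mean of the 8 hosts were taken from 10619 other genes with a mean of at least 5 TPM. Dancr came first, with a Pearson r of 0.99, followed by Gm16973 (0.976), Zswim9 (0.954), 1110038B12Rik (0.95) and Gm13815 (0.948). These correlations describe libraries that share cultures, fractions and scaling. Dancr, a noncoding host itself, was the only one of the 5 on a list above. Whether the others hold snoRNAs in their introns was not examined.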

How the data were processed

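Libraries were made from 10 ng of RNA with an Ovation RNA-Seq kit, per the labels' protocols; reads not matching ribosomal RNA were aligned to exonic and intronic sequences with STAR 2.5.0 and quantified with RSEM (mm10, per the labels' protocols and the submitters' processing notes; the annotation release is not stated). The deposited signal is named TPM, yet each column sums to 10 times the total that defines TPM, so values were divided by 10. Sequencing depth is not given in the sources used here and TPM keeps none, so no counting interval could be set.

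Rows were matched to GENCODE M21 (110366 of 121429 exonic and 89935 of 91702 intronic rows) and summed per gene. Both labelling times of each culture were averaged on the log2(TPM + 1) scale, and the 8 resulting means in 4 groups were tested with limma 3.58.1 (trend, R 4.3.3). Genes needed a mean of at least 1 TPM, p-values were two-sided and adjusted by Benjamini and Hochberg over all genes, with a threshold of 0.05. Fold changes on the log2(TPM + 1) scale understate those of low genes. The 15 against 10 minute fits held the culture as a term. The code was tested on simulated data.

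The hosts and lists were chosen with earlier results of these data known. Named genes were all hosts, Dicer1, list genes past the threshold or the most abundant of a list, and the 5 most similar profiles. Labelled and preexisting fractions that share a genotype, time and biological replicate number were taken as 1 culture, as the labels imply. Same-numbered fractions deviated together with a correlation of 0.051 in KO and 0.397 in WT. Alternatives were another pseudocount, no filter, the compared groups alone, median centring, exonic or intronic rows rescaled to a common total, and a block. The block was the culture where fractions were compared, and the replicate number between KO and WT within a fraction. Further alternatives were each labelling time alone, each culture left out, and no retained-intron isoforms. Small RNA libraries were not used here. Figures were drawn with matplotlib 3.10.9.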

Additional observations from a re-analysis of the deposited data

Results flagged for a closer look

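Of 64 sets of 4 libraries examined (8 hosts, exonic and intronic, labelled and preexisting, KO and WT), 1 held a library far from the other 3. The exonic Snhg8 level in preexisting WT RNA was 26.2 TPM at 10 minutes in replicate 1, while the other 3 libraries held 14.2 to 16.04 TPM. The gap was 0.846 of the whole range. Chance flags about 1 in 20 such sets. The same library was the highest of its group for all 8 hosts.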

How the results depend on the processing

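All 8 hosts kept a positive labelled over preexisting change in WT exons under every alternative run, and 7 of 8 did in KO exons, where Snhg3 became -0.24 under median centring, -0.35 in the 10 minute libraries alone and -0.20 without KO replicate 2. No alternative made a host pass between KO and WT or between 15 and 10 minutes. Only 2 cultures a group, an unknown sequencing depth, isoforms that share reads and a relative unit limit these values, and a culture left out leaves its group with 1 sample, assumed to vary like the others. Where a value below changed, the cause was not tested.

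Hosts past the threshold in exons numbered 3 in KO and 3 in WT under median centring, 2 in KO and 2 in WT in the 10 minute libraries alone, and 3 in WT with no filter, against 6 in each. In introns they numbered 1 in KO and 1 in WT under median centring and 0 in each with intronic rows rescaled to a common total, against 8 in each; Snhg3 introns became -0.55 in KO and -0.089 in WT under the first and -0.64 in KO and -0.20 in WT under the other. The median of the host introns was 0.48 in KO and 0.87 in WT when rescaled, against 2.27 and 2.64. Of all genes, the labelled over preexisting exonic fits called 5640 in KO and 3964 in WT from the 10 minute libraries, against 8972 and 7434. The intronic ones called 21755 in KO and 20929 in WT with no filter, 5750 and 5849 under median centring, and 6670 and 7791 rescaled, against 11841 and 11815.

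Between KO and WT, the genes called in preexisting RNA (141) became 0 with no filter, 0 with only the groups compared, 40 under median centring, 1 at 10 minutes and 7 at 15 minutes. In labelled RNA the 28 became 0 with a pseudocount of 0.1, 86 with no filter, 0 with only the groups compared and 15 under median centring. For the ratio, the 1 became 0 with that pseudocount, 17 with no filter, 18 at 10 minutes and 23 at 15 minutes. In labelled introns the 528 became 1 with that pseudocount, 1061 with no filter, 28 with only the groups compared, 1 under median centring, 0 rescaled, 19 at 10 minutes and 82 at 15 minutes. Between 15 and 10 minutes in labelled exons, the 1 became 2 with that pseudocount, 0 with no filter and 2 under median centring.

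KO and WT share only a replicate number, with deviations correlated at 0.162 in labelled and 0.219 in preexisting RNA. With the replicate number as a block, 267 genes passed between KO and WT in preexisting RNA and 1276 in labelled introns, with no host among them. For the ratio and for labelled over preexisting RNA the block was the culture, and 0 genes then passed for the ratio. For labelled over preexisting RNA the culture block added Snhg8 in WT and changed no other host's call.

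Signs of small host changes moved. Between KO and WT in preexisting RNA, Zfas1 became 0.001 rescaled and 0.029 at 10 minutes, and Snhg3 -0.14 at 15 minutes. In labelled RNA, Snhg6 became 0.067 rescaled and 0.072 at 10 minutes, and Gas5 0.031 at 10 minutes. For the ratio, Snhg15 became -0.027 with a pseudocount of 0.1, -0.023 under median centring and -0.13 at 10 minutes, Gas5 0.018 rescaled and 0.16 at 10 minutes, Snhg3 0.007 and Snhg8 -0.34 at 15 minutes, and Zfas1 0.007 without retained-intron isoforms. Between 15 and 10 minutes, labelled Snhg6 exons became -0.002 rescaled, Gas5 introns 0.069 under median centring and 0.14 rescaled, Zfas1 introns 0.062 and 0.13, and Snhg5 introns 0.02 rescaled.

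Leaving out 1 culture at a time, or the 10 minute preexisting libraries of replicate 1 where they enter, gave these ranges. Hosts past the threshold in labelled over preexisting exons ran from 3 to 7 in KO and from 0 to 7 in WT, and genes from 4086 to 8485 in KO and from 0 to 7933 in WT, with 0 when either WT culture was left out. Genes between KO and WT ran from 0 to 2 in preexisting RNA, 0 to 76 in labelled RNA, 0 to 0 for the ratio and 1 to 4 in labelled introns, and between 15 and 10 minutes from 0 to 3 in labelled exons and 0 to 2 in labelled introns. Snhg3 in KO ran from -0.20 to 0.74 for labelled over preexisting exons. Between KO and WT in preexisting RNA, Snhg15 ran from -0.58 to 1.16, Zfas1 from -0.50 to 0.47, Snhg12 from -1.08 to 0.33 and Snhg6 from -0.78 to 0.013. In labelled RNA, Gas5 ran from -0.43 to 0.04, Snhg6 from -0.19 to 0.17 and Snhg3 from -0.33 to 0.012. For the ratio, Gas5 ran from -0.29 to 0.20, Zfas1 from -0.86 to 0.15, Snhg8 from -0.23 to 1.27, Snhg15 from -0.60 to 0.60, Snhg12 from -0.71 to 0.41, Snhg5 from -0.16 to 0.42 and Snhg6 from -0.022 to 0.70. In labelled introns, Gas5 ran from -0.59 to 0.13, Snhg3 from -0.36 to 0.13 and Snhg6 from -0.36 to 0.22. Between 15 and 10 minutes, labelled exons of Gas5 ran from -0.04 to 0.17 and of Snhg6 from -0.002 to 0.10, preexisting exons of Snhg15 from -0.21 to 0.51, Snhg12 from -0.23 to 0.69, Snhg8 from -0.035 to 0.71 and Snhg6 from -0.43 to 0.14, and labelled introns of Gas5 from -0.14 to 0.052 and of Snhg8 from -0.41 to 0.037.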
